A study of Homo sapiens with 14 samples.

Results

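Sodium valproate was added to TGFb1 in cultures of PANC-1, an established human line from a pancreatic ductal carcinoma, and the RNA was compared with that of cultures given TGFb1 alone. The comparison takes 7 of the 14 arrays: 3 of TGFb1 with 2 mM valproate and 4 of TGFb1 alone, chosen by the treatment in their titles. TGFb1 was given at 5 ng/ml in both groups. All cultures grew in 10% serum, went through 24 h of 1% serum and had 48 h of treatment. Each array took 200 ng of RNA. The other arrays, 4 of untreated cells and 3 of TGFb1 with 2.5 µM acriflavine, serve here as reference levels and lend their spread to the fit. The labels call the replicates biological. Every valproate culture also received TGFb1, so the effect of valproate without TGFb1 was not measured, and all cultures are of 1 line. The other condition of the design, acriflavine without TGFb1, was not analysed here.

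Valproate is a short-chain fatty acid used against epilepsy that inhibits class I and, more weakly, class IIa histone deacetylases, the enzymes that take acetyl groups off histones and other proteins. Inhibitors of this kind are known to raise the cell cycle inhibitor CDKN1A and to slow the division of cancer cells. TGFb1 signals through a receptor kinase pair to SMAD transcription factors, and in pancreatic carcinoma cells it is known for driving epithelial-mesenchymal transition (EMT), in which epithelial genes give way to mesenchymal ones.

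Values are log2 intensities, so a difference of 1 is a 2-fold change. Each gene was read from its brightest probe set, and the 7252 dimmest of 18129 genes were left out, which left 10877 genes tested. A gene is said to have risen or fallen where the adjusted p of its difference (limma with Benjamini-Hochberg adjustment over all genes tested) was under 0.05. Differences are given ± SE from that fit, group means ± SD. Where the values of single arrays are listed, they stand in the order of the replicate numbers.

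Along the main axis of variation among the 7 arrays, which held 53.9% of the variance, the 3 valproate arrays lay at one end and the 4 TGFb1 arrays at the other. TGFb1 array 4 stood apart on the next axis (31.7%), and it had the largest spread around its group mean (SD 0.37 over genes, against 0.16 or less for TGFb1 arrays 1 and 3). TGFb1 array 2 lay between (0.26). Several results below shift when array 4, or arrays 2 and 4 together, are left out, and values without them stand beside many of these.

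Valproate with TGFb1 differed from TGFb1 alone in 3402 genes. A total of 1643 genes (15.1% of those tested) were higher with valproate and 1759 (16.2%) were lower. Of these, 268 rose at least 2-fold (2.46%) and 177 fell at least 2-fold (1.63%). All 3 valproate arrays lay above all 4 TGFb1 arrays in 1820 genes (16.7%) and below them in 1945 (17.9%). Without TGFb1 array 4 the fit called 2215 rises and 2182 falls, of which 1583 and 1669 were also called with all arrays. The median difference over all genes tested was -0.0063.

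**Figure D1:**
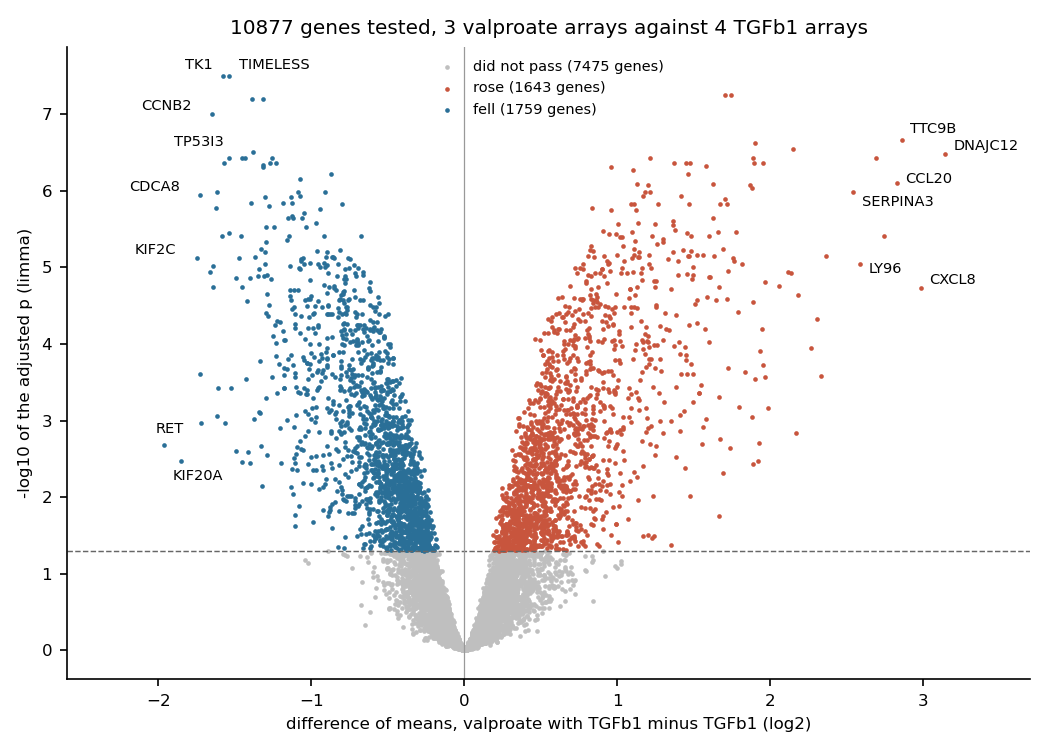
Each point is 1 of the 10877 genes tested. The x axis is the log2 difference of valproate with TGFb1 minus TGFb1 alone, the y axis is -log10 of the adjusted p, and coloured points passed an adjusted p of 0.05. Named rises lie at the right, with DNAJC12 at 3.14 and CXCL8 at 2.98. The named falls at the left include genes of mitosis such as KIF20A at -1.85.

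Among the genes above the brightness limit the largest rise was that of DNAJC12, a co-chaperone of the enzymes that hydroxylate aromatic amino acids. It stood at 10.49, 10.66 and 10.54 in the valproate arrays and at 7.70, 7.34, 7.84 and 6.81 in the TGFb1 arrays. The groups lay far apart, and DNAJC12 rose by 3.14 ± 0.20 (adjusted p = 3.31e-07), a fold of 8.83. TTC9B, which encodes a tetratricopeptide repeat protein, rose by 2.86 ± 0.17 (adjusted p = 2.16e-07), from 8.96, 9.02, 8.89 and 8.65 with TGFb1 to 11.77, 11.62 and 11.83 with valproate. C11orf96 rose by 2.74 ± 0.25, and MARCHF9, a membrane-bound ubiquitin ligase, rose by 2.69 ± 0.18. Other genes with large rises were LY75, an endocytic receptor (rose by 2.27 ± 0.32), the Golgi mannosidase MAN1A1 (rose by 2.17 ± 0.42), the serine protease PRSS3 (rose by 2.15 ± 0.13), ENPP4 (rose by 2.18 ± 0.25), SEL1L3 (rose by 2.36 ± 0.23) and the tight junction claudin CLDN11 (rose by 2.30 ± 0.29). All of these were higher in each valproate array than in each TGFb1 array. PRSS3 belongs to a family of close relatives whose probes can share signal. The TGFb1 values of PRSS3 and MARCHF9 lay below the brightness limit of 6.89, where values are compressed, so the sizes of their rises are uncertain.

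RET, the receptor of GDNF family ligands, had the largest fall. Its values were 7.99, 7.74 and 8.13 with valproate and 9.27, 10.14, 9.52 and 10.73 with TGFb1. The groups did not overlap, though the TGFb1 arrays were widely spread, and RET fell by 1.96 ± 0.40 (adjusted p = 0.00211). Without TGFb1 arrays 2 and 4 the difference was -1.44 (adjusted p = 0.0135). Of the next 14 falls, ARHGEF39 fell by 1.73 ± 0.27 and the helicase PIF1 fell by 1.72 ± 0.32. Most others serve mitosis or cytokinesis and are described with that group.

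The counts of each gene list below are to be read against the 15.1% of all genes tested that rose and the 16.2% that fell. The genes nearest to the drug's action are the deacetylases themselves. Of the histone deacetylases and sirtuins, 4 of 17 rose and 2 fell, with a median difference of 0.025. The class I enzymes that valproate inhibits did not pass: HDAC1 differed by 0.11 ± 0.09 (adjusted p = 0.38), HDAC2 by 0.025 ± 0.10 (adjusted p = 0.892), HDAC3 by 0.019 ± 0.071 (adjusted p = 0.878) and HDAC8 by 0.22 ± 0.11 (adjusted p = 0.161). HDAC9, a class IIa enzyme, rose by 0.70 ± 0.16 (adjusted p = 0.00492), a value that was 0.46 without TGFb1 arrays 2 and 4. HDAC5, of the same class, rose by 0.41 ± 0.095 (adjusted p = 0.00494). The tubulin deacetylase SIRT2 rose by 0.51 ± 0.14 (adjusted p = 0.0126), and SIRT1, a nuclear NAD-dependent deacetylase, fell by 0.63 ± 0.099 (adjusted p = 0.000268). SIRT2 missed the threshold with only both groups in the fit (adjusted p = 0.0624). Without TGFb1 array 4, 4 members of the deacetylase and sirtuin list fell rather than 2.

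Among the subunits of the complexes that carry deacetylases to DNA, 0 of 23 rose and 6 fell. The NuRD helicase CHD3 fell by 1.12 ± 0.094 (adjusted p = 2.11e-06), from 10.55, 10.68, 10.52 and 10.86 with TGFb1 to 9.65, 9.39 and 9.55 with valproate. The NuRD subunit MBD3 fell by 0.79 ± 0.17 and the scaffold SIN3A fell by 0.59 ± 0.14. The opposing enzymes, acetyltransferases, and the bromodomain readers of acetyl-lysine fell more widely: 1 of 18 rose and 11 fell, with a median of -0.41. The acetyltransferase CREBBP fell by 0.81 ± 0.11 (adjusted p = 6.74e-05), at 10.04, 10.24 and 10.27 with valproate against 11.10, 10.91, 11.19 and 10.77. The bromodomain protein BRD2 fell by 0.72 ± 0.073 and the acetyltransferase KAT5 fell by 0.72 ± 0.075, while BRD3 differed by -0.062 ± 0.079 (adjusted p = 0.614). With 1 array left out in turn, the rise in that group was called in the fit without TGFb1 array 4 and in none of the other 6.

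Of 22 tested genes that textbook accounts list as raised by deacetylase inhibitors, 5 rose and 2 fell. Without TGFb1 array 4 the count of rises was 8. Transglutaminase TGM2 rose by 1.42 ± 0.22 (adjusted p = 0.000244), with 13.04, 13.16 and 13.10 in the valproate arrays and 11.95, 11.82, 12.10 and 10.85 in the TGFb1 arrays. The carboxypeptidase CPA4 rose by 0.83 ± 0.18 (adjusted p = 0.00288). The neuronal tubulin TUBB3 differed by -0.058 ± 0.17 (adjusted p = 0.846), the growth arrest gene GADD45B by -0.21 ± 0.24 (adjusted p = 0.575) and the histone gene H2BC12 by -0.035 ± 0.068 (adjusted p = 0.757). ULBP2 and CDKN1A, which also belong here, are given with their groups. The difference of GADD45B was -0.45 (adjusted p = 0.0744) without TGFb1 array 4.

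Genes of mitosis fell almost without exception. Of 74 genes of mitosis and the spindle tested, 70 fell and none rose, against 16.2% of all genes that fell. A total of 58 fell at least 2-fold. The median difference was -1.18 and the members ranged from -1.85 to -0.20. In 69 of the 74 the valproate arrays lay wholly below the TGFb1 arrays. CDC25B, CENPE, SGO2 and ASPM did not pass. At an unadjusted p under 0.05 in limma 73 were lower and 0 higher. The mean of the list in each array, set against the TGFb1 mean, was -0.98, -1.37 and -1.22 with valproate and -0.17, -0.19, -0.18 and 0.54 with TGFb1. TGFb1 array 4 was the high array, and without it 69 genes fell, with a median of -1.003. With array 2 left out as well, 72 fell and the median was -1.01.

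KIF20A, a kinesin of the central spindle, was the member with the largest fall. It measured 7.43, 6.34 and 6.88 with valproate and 8.06, 8.72, 7.99 and 10.17 with TGFb1. Array 4 was the highest of the 7, and the groups did not overlap. KIF20A fell by 1.85 ± 0.41 (adjusted p = 0.00336). The difference was -1.14 (adjusted p = 0.00145) in the fit without TGFb1 arrays 2 and 4. KIF2C, a kinesin that depolymerises microtubules at kinetochores, was at 9.36, 8.74 and 9.07 with valproate and at 10.68, 10.82, 10.46 and 11.27 with TGFb1. It fell by 1.75 ± 0.17 (adjusted p = 7.49e-06). CDCA8, the borealin subunit of the chromosomal passenger complex, read 9.08, 8.73 and 8.79 against 10.54, 10.69, 10.47 and 10.68 and fell by 1.73 ± 0.13 (adjusted p = 1.13e-06). CCNB2, a B-type cyclin that drives entry into mitosis, read 9.28, 9.07 and 9.17 against 10.77, 10.82, 10.66 and 11.05 and fell by 1.65 ± 0.091 (adjusted p = 9.98e-08). The valproate arrays were below every TGFb1 array in each of these 4 genes.

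Further members of the same machinery followed. PLK4, which starts centriole duplication, fell by 1.61 ± 0.29. KIF4A, a chromosome-bound kinesin, fell by 1.62 ± 0.12, and NUF2, of the NDC80 complex that ties kinetochores to microtubules, fell by 1.58 ± 0.14. The spindle-associated GTSE1 fell by 1.64 ± 0.17, and CIT, a kinase of cytokinesis, fell by 1.62 ± 0.13. OIP5, which helps load CENPA at centromeres, fell by 1.66 ± 0.17. DEPDC1 fell by 1.61 ± 0.26. CDCA3 fell by 1.64 ± 0.18, but its other probe set gave 0.024. The phosphatase CDC25B, which activates CDK1, differed by -0.20 ± 0.084 (adjusted p = 0.0845).

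Promoters are shown for 3 of the mitotic genes and for the chemokines CXCL8 and CCL20, which had the largest rises of those above the brightness limit, since mitotic genes fell and chemokines rose. The sequences are RefSeq promoters on GRCh38.p14, 300 bases each, from 250 bases before to 50 after the start, written 5′ to 3′ in the direction of the gene. Capitals mark matches, on either strand, to 4 motifs: the cell cycle genes homology region or CHR (TTTGAA), bound by the MuvB complex, the CCAAT box (CCAAT) of NF-Y, an E2F motif (TTTGGCGC or TTTCGCGC), and an NF-kB motif (GGNNNTTCC). The windows are at chr5:138178862-138179161, plus strand, for KIF20A, chr1:44739587-44739886, plus strand, for KIF2C, chr1:37692266-37692565, plus strand, for CDCA8, chr4:73740319-73740618, plus strand, for CXCL8, and chr2:227813592-227813891, plus strand, for CCL20.
KIF20A: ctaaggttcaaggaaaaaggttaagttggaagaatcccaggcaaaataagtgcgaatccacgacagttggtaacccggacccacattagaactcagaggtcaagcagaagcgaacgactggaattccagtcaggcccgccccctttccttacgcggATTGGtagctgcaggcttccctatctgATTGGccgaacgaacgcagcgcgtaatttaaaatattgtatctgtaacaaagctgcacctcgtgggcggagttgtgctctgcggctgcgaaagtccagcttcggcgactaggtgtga
KIF2C: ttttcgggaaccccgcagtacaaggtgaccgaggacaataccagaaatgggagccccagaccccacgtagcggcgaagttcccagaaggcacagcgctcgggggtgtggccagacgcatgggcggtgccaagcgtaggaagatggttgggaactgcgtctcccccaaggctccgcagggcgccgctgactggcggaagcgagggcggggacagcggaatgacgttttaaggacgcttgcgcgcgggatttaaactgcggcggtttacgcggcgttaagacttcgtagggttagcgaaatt
CDCA8: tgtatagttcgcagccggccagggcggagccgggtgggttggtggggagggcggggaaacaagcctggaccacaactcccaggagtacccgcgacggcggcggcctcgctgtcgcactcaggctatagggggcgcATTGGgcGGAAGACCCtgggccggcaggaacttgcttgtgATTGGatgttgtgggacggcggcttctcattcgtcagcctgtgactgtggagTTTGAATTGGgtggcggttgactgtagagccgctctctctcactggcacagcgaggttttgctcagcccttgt
CXCL8: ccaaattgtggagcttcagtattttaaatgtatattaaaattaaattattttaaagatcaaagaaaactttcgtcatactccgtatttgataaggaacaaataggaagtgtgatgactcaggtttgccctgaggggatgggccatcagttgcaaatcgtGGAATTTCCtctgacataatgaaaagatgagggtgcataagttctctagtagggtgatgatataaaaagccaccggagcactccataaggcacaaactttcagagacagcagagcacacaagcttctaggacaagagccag
CCL20: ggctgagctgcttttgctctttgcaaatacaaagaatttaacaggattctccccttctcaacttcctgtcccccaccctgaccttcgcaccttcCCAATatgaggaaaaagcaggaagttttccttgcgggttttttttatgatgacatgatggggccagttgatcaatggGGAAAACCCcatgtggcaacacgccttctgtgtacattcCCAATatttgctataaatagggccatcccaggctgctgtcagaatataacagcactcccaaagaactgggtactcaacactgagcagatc

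KIF20A holds 2 CCAAT boxes read on the opposite strand (ATTGG), which begin 94 and 67 bases before the start. CDCA8 holds a CHR 23 bases before the start and CCAAT boxes on the opposite strand 115, 75 and 18 bases before it, the last of which shares 1 base with the CHR, and an NF-kB match 108 bases before it. No match was found in the window of KIF2C. CXCL8 holds GGAATTTCC, 91 bases before the start, which matches the NF-kB motif on both strands. CCL20 holds an NF-kB match 79 bases before the start and CCAAT boxes 156 and 40 bases before it. A match is a run of letters and not a measured binding site.

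Across the mitotic list, 62 of the 74 genes had a promoter in the table, of which 43 (69.4%) held a CHR and 45 (72.6%) a CCAAT box. Among the 9000 tested genes with a promoter the shares were 9.32% and 36.7%, and among all 27305 promoters of the table they were 15.4% and 35.7%. The E2F motif was in 3 mitotic promoters (4.84%), against 2.13% of tested genes and 1.18% of all promoters. Of 140 promoters of genes that fell at least 2-fold, 35.7% held a CHR and 57.1% a CCAAT box. Of 209 promoters of genes that rose at least 2-fold, 6.22% held a CHR and 36.8% a CCAAT box. The NF-kB motif was in 7 of 11 promoters of the tested chemokines and cytokines (63.6%) and in 12 of 26 (46.2%) when members below the brightness limit are counted, against 23.5% of tested genes and 20.1% of all promoters. It was in 26.3% of the promoters of genes that rose at least 2-fold and 22.9% of those that fell at least 2-fold, both near the share of tested genes. Of the mitotic promoters 24.2% held it. These shares are descriptions, since the genes were grouped by function and by their change.

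**Figure D2:**
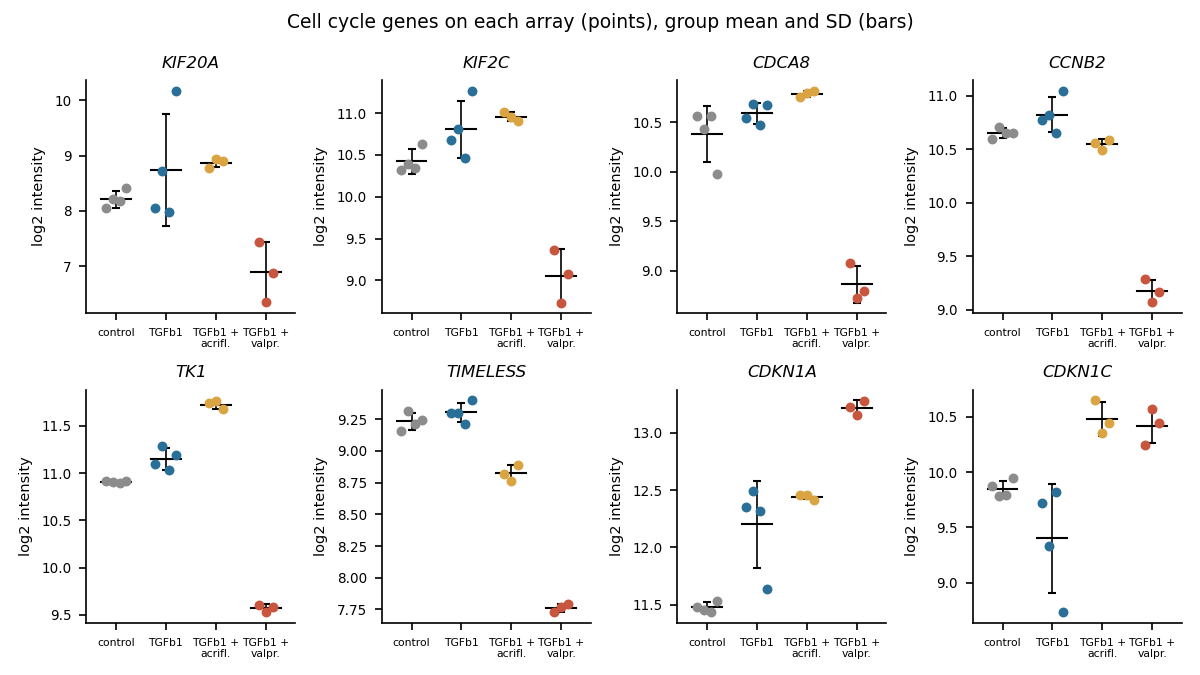
Log2 intensity (y axis) of 8 cell cycle genes in each array of the 4 treatments (x axis), with 1 point an array a line at each group mean and bars of the SD. KIF20A, KIF2C, CDCA8, CCNB2, TK1 and TIMELESS are lower in the 3 valproate arrays than in the 4 TGFb1 arrays, while the inhibitors CDKN1A and CDKN1C are higher, and the highest TGFb1 point of KIF20A, at 10.17, is array 4.

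Genes of DNA replication and nucleotide synthesis fell with those of mitosis: 0 of 61 rose and 52 fell, with a median of -0.86, and in 54 the valproate arrays lay wholly below. Without TGFb1 array 4 the count was again 52 and the median -0.72. Thymidine kinase TK1 read 9.61, 9.53 and 9.58 with valproate and 11.09, 11.29, 11.03 and 11.19 with TGFb1. It fell by 1.58 ± 0.072 (adjusted p = 3.15e-08). TIMELESS, a protector of the replication fork, fell by 1.54 ± 0.071 (adjusted p = 3.15e-08), at 7.73, 7.77 and 7.79 against 9.30, 9.30, 9.21 and 9.40. Thymidylate synthase TYMS fell by 1.43 ± 0.094 (adjusted p = 3.76e-07), and E2F8, a repressor of the E2F family, fell by 1.50 ± 0.31 (adjusted p = 0.00252). POLD2, a subunit of polymerase delta, differed by -0.27 ± 0.11 (adjusted p = 0.0873) and passed once TGFb1 array 4 was left out (-0.36, adjusted p = 0.0106). DCTPP1, a pyrophosphatase that clears nucleotides, differed by 0.071 ± 0.10 (adjusted p = 0.67), and by 0.25 (adjusted p = 0.0245) without TGFb1 arrays 2 and 4. In the 51 promoters of this list that were in the table, 13 held the E2F motif (25.5%), 28 a CCAAT box (54.9%), 1 a CHR (1.96%) and 17 the NF-kB motif (33.3%).

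Among genes of DNA repair and checkpoints, 0 of 40 rose and 29 fell. BRCA1, of homologous recombination, read 8.004, 8.04 and 7.81 with valproate and 9.12, 8.68, 9.17 and 9.56 with TGFb1. It fell by 1.18 ± 0.19 (adjusted p = 0.000374). The helicase BLM fell by 1.11 ± 0.25 and the nuclease EXO1 fell by 1.04 ± 0.19. RAD50, of the complex that senses double-strand breaks, differed by 0.079 ± 0.13 (adjusted p = 0.707). Of the histone genes and variants, 0 of 16 rose and 9 fell. The centromeric histone CENPA fell by 1.20 ± 0.27 (adjusted p = 0.0036) and H4C3, which encodes histone H4, fell by 0.87 ± 0.11 (adjusted p = 4.04e-05). The linker histone gene H1-2 fell by 0.82 ± 0.18 (adjusted p = 0.00376), and the linker histone H1-10 differed by -0.082 ± 0.31 (adjusted p = 0.88), or by -0.43 (adjusted p = 0.0975) without TGFb1 array 4. H2AX, the variant phosphorylated at breaks, fell by 0.73 ± 0.16 (adjusted p = 0.00344) and showed -0.46 without TGFb1 arrays 2 and 4. Histone gene copies are near identical, so their probes may share signal. At an unadjusted p under 0.05 in limma 0 genes of replication were higher, 1 of repair and 1 of the histone list.

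Ribosome biogenesis moved the same way by smaller amounts: 1 of 39 rose and 22 fell, with a median of -0.34. POLR1A, the largest subunit of RNA polymerase I, fell by 0.79 ± 0.11 (adjusted p = 8.43e-05), with 8.42, 8.27 and 8.39 in the valproate arrays and 9.01, 9.36, 8.91 and 9.33 in the TGFb1 arrays. UBTF, which brings that polymerase to the ribosomal genes, fell by 0.66 ± 0.097, and UTP20, of the small-subunit processome, fell by 0.70 ± 0.096. The nucleolar methyltransferase FBL differed by -0.068 ± 0.06 (adjusted p = 0.432). Nucleophosmin NPM1 differed by -0.18 ± 0.073 (adjusted p = 0.0835) and passed without TGFb1 array 4 (-0.20, adjusted p = 0.0453).

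Among the D-type cyclins and inhibitors of cyclin-dependent kinases, 5 of 15 rose and 4 fell. CDKN1A, the p21 inhibitor of cyclin-dependent kinases, stood at 13.23, 13.15 and 13.28 with valproate and at 12.35, 12.49, 12.32 and 11.64 with TGFb1. The lowest valproate array was above the highest TGFb1 array, and CDKN1A rose by 1.02 ± 0.15 (adjusted p = 0.000176). CDKN1C, the p57 inhibitor of the same family, read 10.25, 10.57 and 10.44 against 9.72, 9.33, 9.82 and 8.73 and rose by 1.02 ± 0.20 (adjusted p = 0.00149). Its difference was 0.65 without TGFb1 arrays 2 and 4. CDKN3, a phosphatase that acts on CDK2, fell by 0.87 ± 0.20 (adjusted p = 0.00421). Cyclin D2, CCND2, rose by 1.66 ± 0.48 (adjusted p = 0.0174), but the difference was 0.80 (adjusted p = 0.0645) without TGFb1 arrays 2 and 4, and it also missed the threshold without valproate array 2. Cyclin D1, CCND1, differed by -0.16 ± 0.14 (adjusted p = 0.46).

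The rise of CDKN1A was not shared by most p53 targets, of which 3 of 25 rose and 4 fell. TP53I3, a quinone oxidoreductase, fell by 1.38 ± 0.086 (adjusted p = 3.12e-07), from 11.57, 11.42, 11.46 and 11.25 with TGFb1 to 9.93, 10.05 and 10.17 with valproate. GDF15, a stress-induced member of the TGFb family, differed by 0.49 ± 0.21 (adjusted p = 0.0873), and by 0.63 (adjusted p = 0.0323) without TGFb1 array 2, 0.24 (adjusted p = 0.0664) without array 4 and 0.30 (adjusted p = 0.0267) without both. With TGFb1 array 4 left out, 8 of the p53 targets fell, and the rises were 5 without TGFb1 array 2 and 1 without valproate array 2. Of the BCL2 family and death receptors, 2 of 25 rose and 3 fell, and without that array 5 rose and 5 fell. The inflammatory caspase CASP4 rose by 0.82 ± 0.14 (adjusted p = 0.000465). BCL2L11, the BIM activator of apoptosis, fell by 0.63 ± 0.15 (adjusted p = 0.0069) and showed -0.41 without TGFb1 arrays 2 and 4. CFLAR, which blocks caspase 8, fell by 0.51 ± 0.14 (adjusted p = 0.0149), a call lost without valproate array 1. CFLAR also missed the threshold with only both groups in the fit (adjusted p = 0.0633). With probe sets whose names end in _x_at left out it did not pass either (-0.35, adjusted p = 0.106). MCL1, which holds apoptosis back, differed by 0.0046 ± 0.11 (adjusted p = 0.982).

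Chemokines were among the largest rises. Of the 20 chemokines and cytokines tested, 11 rose and 1 fell, against 15.1% and 16.2% of all genes, and 7 rose at least 2-fold. The median difference was 0.47. With no brightness limit 36 members could be tested, of which 15 rose and 1 fell, and the median was 0.25. CXCL8, the neutrophil attractant interleukin 8, stood at 12.93, 12.52 and 12.52 with valproate and at 9.47, 9.72, 9.34 and 10.16 with TGFb1. The groups were well separated, and CXCL8 rose by 2.98 ± 0.33 (adjusted p = 1.85e-05), a fold of 7.9. CCL20, the ligand of CCR6, read 9.59, 9.91 and 9.62 against 7.19, 6.86, 7.12 and 6.36 and rose by 2.83 ± 0.21 (adjusted p = 8e-07). CXCL5 and CXCL1 also attract neutrophils through CXCR2. CXCL5 read 7.65, 7.90 and 7.64 with valproate and 5.35, 5.15, 5.48 and 5.61 with TGFb1, and rose by 2.33 ± 0.36 (adjusted p = 0.000263). Its TGFb1 values lay below the brightness limit of 6.89, where values are compressed, so the size of this rise is uncertain. CXCL1 read 12.90, 12.42 and 12.63 against 10.35, 10.91, 10.33 and 11.23 and rose by 1.95 ± 0.25 (adjusted p = 6.36e-05).

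The levels of these chemokines in untreated cells were not alike. CXCL5 averaged 7.55 ± 0.96 in untreated cells, 5.40 ± 0.19 with TGFb1 and 7.73 ± 0.15 with TGFb1 and valproate. CCL20 averaged 9.17 ± 0.37, 6.88 ± 0.37 and 9.71 ± 0.18 in the same order. The valproate level of CXCL5 differed from the untreated level by 0.18 ± 0.36 (adjusted p = 0.739), and that of CCL20 by 0.54 ± 0.21 (adjusted p = 0.0558). CXCL8, by contrast, averaged 10.07 ± 0.81 in untreated cells and 9.67 ± 0.36 with TGFb1, and with valproate it rose by 2.58 ± 0.33 (adjusted p = 4.21e-05) against untreated cells. The member that fell was IL11, an interleukin 6 family cytokine and TGFb target, which fell by 1.08 ± 0.30 (adjusted p = 0.0132) and missed the threshold without valproate array 2. IL18, a cytokine of the inflammasome, differed by 0.55 ± 0.33 (adjusted p = 0.23), and by 0.18 without TGFb1 array 4 and 0.028 without arrays 2 and 4. LIF, of the interleukin 6 family, differed by -0.15 ± 0.14 (adjusted p = 0.447). Without TGFb1 array 4, 3 members fell, LIF among them (-0.31, adjusted p = 0.00691).

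**Figure D3:**
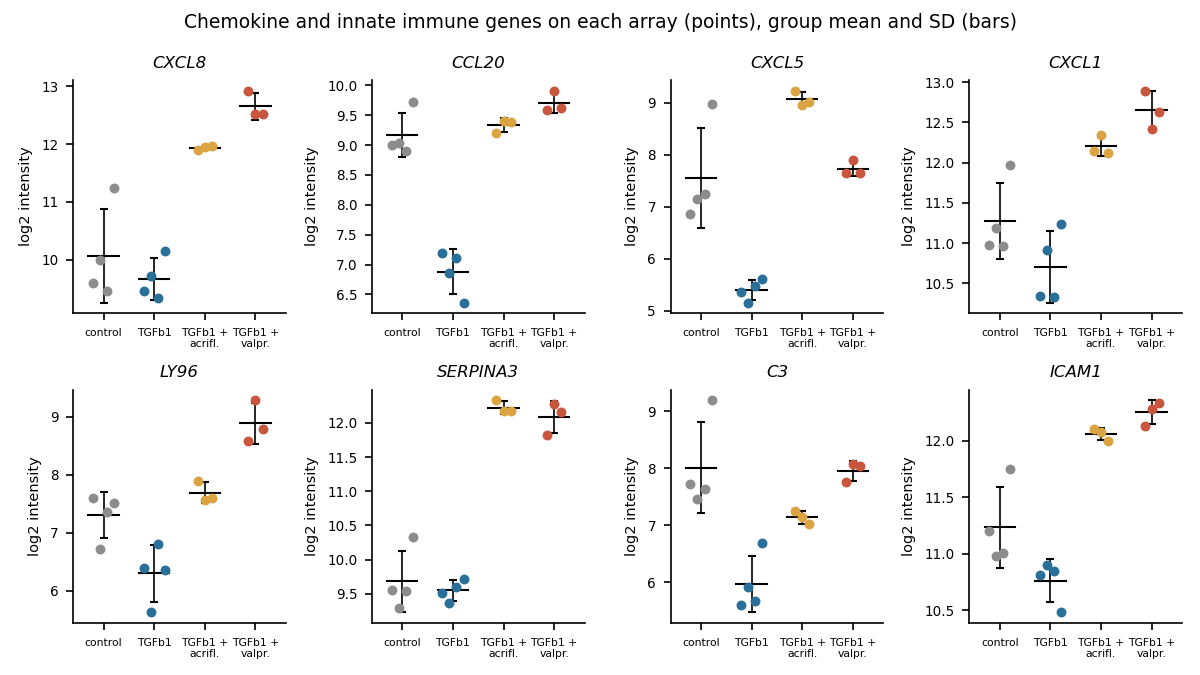
Log2 intensity (y axis) of 8 genes of chemokines, complement and innate sensing in each array of the 4 treatments (x axis), with 1 point an array a line at each group mean and bars of the SD. All 3 valproate arrays lie above all 4 TGFb1 arrays in each panel, from CXCL8 at 12.52 or higher against 10.16 or lower to ICAM1, and the untreated arrays lie nearer to valproate for CXCL5 and CCL20 than for CXCL8.

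Regulators of NF-kB and innate sensing rose in part: 11 of 25 rose and 2 fell. LY96, the MD-2 partner of TLR4 in sensing lipopolysaccharide, read 8.58, 9.28 and 8.78 with valproate and 6.39, 5.62, 6.81 and 6.36 with TGFb1. It rose by 2.59 ± 0.26 (adjusted p = 9.15e-06), though its TGFb1 values lay below the brightness limit of 6.89, so the size is uncertain. The adhesion molecule ICAM1 rose by 1.49 ± 0.16 (adjusted p = 1.44e-05), with 12.14, 12.29 and 12.34 against 10.81, 10.91, 10.85 and 10.48. The deubiquitinase TNFAIP3, a feedback inhibitor, rose by 1.38 ± 0.22 (adjusted p = 0.000361). NFKBIZ, an atypical IkB protein, rose by 1.19 ± 0.22 (adjusted p = 0.000914). The transcription factor subunit RELA differed by -0.23 ± 0.14 (adjusted p = 0.245), and passed without TGFb1 array 4 (-0.39, adjusted p = 0.00426). The kinase IRAK1 differed by -0.23 ± 0.13 (adjusted p = 0.215), and likewise passed without it (-0.34, adjusted p = 0.0318). Without that array 11 members rose and 7 fell.

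In the complement and acute phase list 4 of 9 rose and 0 fell, with a median of 0.37. With no brightness limit 28 members could be tested, of which 8 rose and 0 fell, and the median was 0.046. SERPINA3, an acute phase protease inhibitor, read 11.83, 12.27 and 12.16 with valproate and 9.51, 9.36, 9.60 and 9.72 with TGFb1. It rose by 2.54 ± 0.19 (adjusted p = 1.03e-06). C3, the central complement protein, read 7.75, 8.07 and 8.03 against 5.60, 5.91, 5.66 and 6.68 and rose by 1.99 ± 0.35 (adjusted p = 0.000681). The TGFb1 values of C3 lay below the brightness limit of 6.89, so the size of its rise is uncertain. Factor D, CFD, rose by 1.88 ± 0.12 (adjusted p = 3.75e-07), and lipocalin 2, LCN2, which withholds iron from bacteria, rose by 1.60 ± 0.22 (adjusted p = 9.48e-05). The valproate arrays were higher in all 4 genes. CD59, which blocks the terminal complement pore, differed by 0.16 ± 0.076 (adjusted p = 0.131).

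Interferon-stimulated genes had no common direction against TGFb1: 4 of 32 rose and 4 fell, with 2 rises without valproate array 2 or 3. BST2, which tethers budding viruses, rose by 1.90 ± 0.30 (adjusted p = 0.00029), from 6.94, 7.39, 7.20 and 8.06 to 9.46, 9.14 and 9.30, although its probe sets ranged from -0.012 to 2.37. UBE2L6, an enzyme of ISG15 conjugation, rose by 1.12 ± 0.18 (adjusted p = 0.00042). IFIT3, which acts on viral RNA, fell by 1.002 ± 0.18 (adjusted p = 0.000953) and its neighbour IFIT2 fell by 0.81 ± 0.16 (adjusted p = 0.00147). Of antigen presentation genes and NKG2D ligands, 9 of 21 rose and 1 fell. The class I heavy chain HLA-F rose by 2.13 ± 0.22 (adjusted p = 1.2e-05), with probe sets from -0.016 to 2.13, and HLA genes share much sequence. The invariant chain CD74 rose by 0.91 ± 0.08 (adjusted p = 3.32e-06), and the NKG2D ligand ULBP2 rose by 1.46 ± 0.14 (adjusted p = 7.07e-06), with probe sets from -0.17 to 1.46. The peptide transporter TAP1 differed by 0.011 ± 0.10 (adjusted p = 0.954).

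Genes of the epithelial state rose more often than they fell: 15 of 34 rose and 1 fell, with a median of 0.36. With 1 array left out in turn the list gave 7 to 16 rises and 0 to 5 falls, the fewest rises without valproate array 2 and the most falls without TGFb1 array 4. SPINT1, an inhibitor of the epithelial protease matriptase, read 10.53, 10.44 and 10.69 with valproate and 8.69, 8.75, 8.69 and 8.27 with TGFb1. It rose by 1.95 ± 0.13 (adjusted p = 4.38e-07). Keratin 7, KRT7, a ductal keratin, read 10.03, 10.37 and 10.34 against 9.20, 9.07, 9.02 and 8.22 and rose by 1.37 ± 0.19 (adjusted p = 0.000108). The integrin ITGB4, of hemidesmosomes, rose by 0.94 ± 0.16 (adjusted p = 0.000422), and the adhesion molecule EPCAM rose by 0.67 ± 0.16 (adjusted p = 0.00547), with a difference of 0.39 without TGFb1 arrays 2 and 4. MUC1, a membrane mucin, fell by 0.31 ± 0.093 (adjusted p = 0.0196) and lost the call without TGFb1 array 1, valproate array 1 or valproate array 2.

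E-cadherin, CDH1, the adhesion molecule whose loss marks EMT, did not pass in the fit of all arrays. Its values were 7.42, 6.96 and 7.26 with valproate and 6.55, 6.59, 6.28 and 6.90 with TGFb1, and 8.98 ± 0.69 in untreated cells. The difference was 0.63 ± 0.28 (adjusted p = 0.104), with a 95% interval of 0.032 to 1.24, and its probe sets ranged from -0.047 to 0.63. It was 0.74 (adjusted p = 0.0548) without TGFb1 array 4. CDH1 passed in other fits: with only both groups in the fit (adjusted p = 0.0295), with replicate 4 of both TGFb1 and untreated cells left out (0.74, adjusted p = 0.00214) and with array weights (0.71, adjusted p = 0.000138). The estimation of those weights did not converge well, and TGFb1 array 1 had a weight of 30.3 against 0.070 for array 4. The keratins KRT8 and KRT18 of simple epithelia differed by -0.11 ± 0.17 (adjusted p = 0.695) and -0.073 ± 0.15 (adjusted p = 0.762). Both were bright in every group, as was KRT19 (12.13 ± 0.19 with valproate and 12.06 ± 0.63 with TGFb1), and so was vimentin, VIM (14.75 ± 0.021 and 14.75 ± 0.018). KRT19 differed by 0.074 ± 0.28 (adjusted p = 0.883), and by 0.60 (adjusted p = 0.0424) without TGFb1 arrays 2 and 4.

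Mesenchymal genes went both ways: 10 of 36 rose and 8 fell. Fibronectin, FN1, a matrix glycoprotein, read 8.58, 8.82 and 8.89 with valproate and 7.09, 6.90, 7.48 and 8.65 with TGFb1. The lowest valproate array lay below the highest TGFb1 array, and FN1 rose by 1.24 ± 0.32 (adjusted p = 0.00962). With only both groups in the fit FN1 missed the threshold (adjusted p = 0.0513). N-cadherin, CDH2, read 10.96, 11.11 and 10.98 against 10.45, 10.24, 10.45 and 10.37 and rose by 0.64 ± 0.079 (adjusted p = 4.45e-05). The surface glycoprotein THY1 rose by 1.40 ± 0.19 (adjusted p = 9.33e-05) and CALD1, which regulates actin and myosin, rose by 1.09 ± 0.20 (adjusted p = 0.00103). Collagen III, COL3A1, fell by 0.94 ± 0.13 (adjusted p = 0.000135), while collagen I, COL1A1, differed by 0.62 ± 0.27 (adjusted p = 0.107). The difference of COL1A1 was 0.31 (adjusted p = 0.176) without TGFb1 array 4, and with untreated array 4 left out as well it passed (0.31, adjusted p = 0.00173). The list had 5 falls without valproate array 1 or 2 or TGFb1 array 3. Markers of the epithelial and of the mesenchymal state were thus both among the rises.

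**Figure D4:**
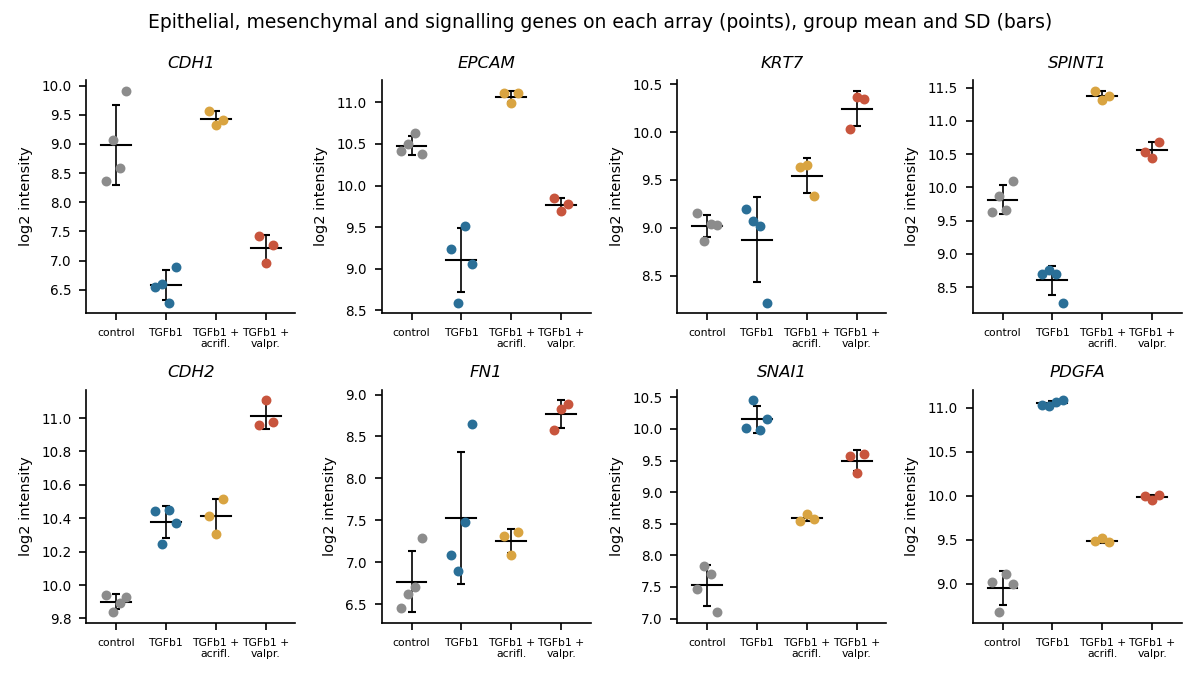
Log2 intensity (y axis) of 8 genes of EMT and TGFb signalling in each array of the 4 treatments (x axis), with 1 point an array a line at each group mean and bars of the SD. The valproate arrays lie above the TGFb1 arrays in SPINT1, KRT7, CDH2 and CDH1 and below them in SNAI1 and PDGFA. The CDH1 difference of 0.63 did not pass.

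Among transcription factors that drive EMT, 1 of 10 rose and 2 fell. SNAI1, a zinc finger repressor of CDH1, read 9.57, 9.30 and 9.61 with valproate and 10.02, 10.45, 9.99 and 10.15 with TGFb1. It fell by 0.66 ± 0.16 (adjusted p = 0.00605). HMGA2, a chromatin protein induced by TGFb, rose by 0.59 ± 0.11 (adjusted p = 0.00124), with probe sets from -0.16 to 1.37. ZEB1, another repressor of CDH1, differed by -0.087 ± 0.17 (adjusted p = 0.753) and SOX4 by -0.053 ± 0.10 (adjusted p = 0.749). SNAI2, ZEB2 and TWIST1 were below the brightness limit, which was set on the mean of all 14 arrays.

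Components and targets of the TGFb pathway were divided as well: 6 of 42 rose and 5 fell. INHBA, which encodes the activin beta A chain, rose by 1.18 ± 0.17 (adjusted p = 0.000134), with 8.28, 8.95 and 8.42 in the valproate arrays and 7.56, 7.38, 7.29 and 7.24 in the TGFb1 arrays. INHBB, the other activin chain, rose by 0.79 ± 0.11 (adjusted p = 8.42e-05). LTBP1, which binds latent TGFb in the matrix, rose by 1.02 ± 0.093 (adjusted p = 4e-06), and ANGPTL4, a lipase inhibitor and SMAD target, rose by 0.74 ± 0.14 (adjusted p = 0.00104). SMAD7, the inhibitory SMAD that TGFb induces, differed by -0.026 ± 0.12 (adjusted p = 0.908). Without TGFb1 array 4, 10 members rose and 8 fell. With 1 array left out in turn the falls ranged from 2, without valproate array 2 or 3, to that 8.

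Of matrix proteases and the plasminogen system 10 of 22 rose and 0 fell, and 4 of the rises were at least 2-fold. MMP7, matrilysin, read 10.38, 10.60 and 10.53 with valproate and 8.26, 8.03, 8.50 and 9.01 with TGFb1. It rose by 2.05 ± 0.23 (adjusted p = 1.75e-05), though its probe sets ranged from -0.081 to 2.05. The thrombin inhibitor SERPINE2 rose by 1.60 ± 0.17 (adjusted p = 1.32e-05). The tissue plasminogen activator PLAT rose by 1.19 ± 0.23 (adjusted p = 0.0014), and PLAUR, the urokinase receptor, rose by 1.06 ± 0.11 (adjusted p = 1.17e-05). Urokinase itself, PLAU, differed by -0.21 ± 0.13 (adjusted p = 0.254). Of integrin, actin and focal adhesion genes 7 of 30 rose and 0 fell. ITGA2, a collagen receptor chain, rose by 0.76 ± 0.13 (adjusted p = 0.000578) and ITGA6, a laminin receptor chain, rose by 0.75 ± 0.093 (adjusted p = 4.73e-05). The actin-severing protein CFL1 differed by 0.014 ± 0.18 (adjusted p = 0.968). The adhesion list gave 3 to 8 rises and 0 to 2 falls with 1 array left out in turn, the fewest rises without valproate array 3 and falls only without TGFb1 array 4.

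**Figure D5:**
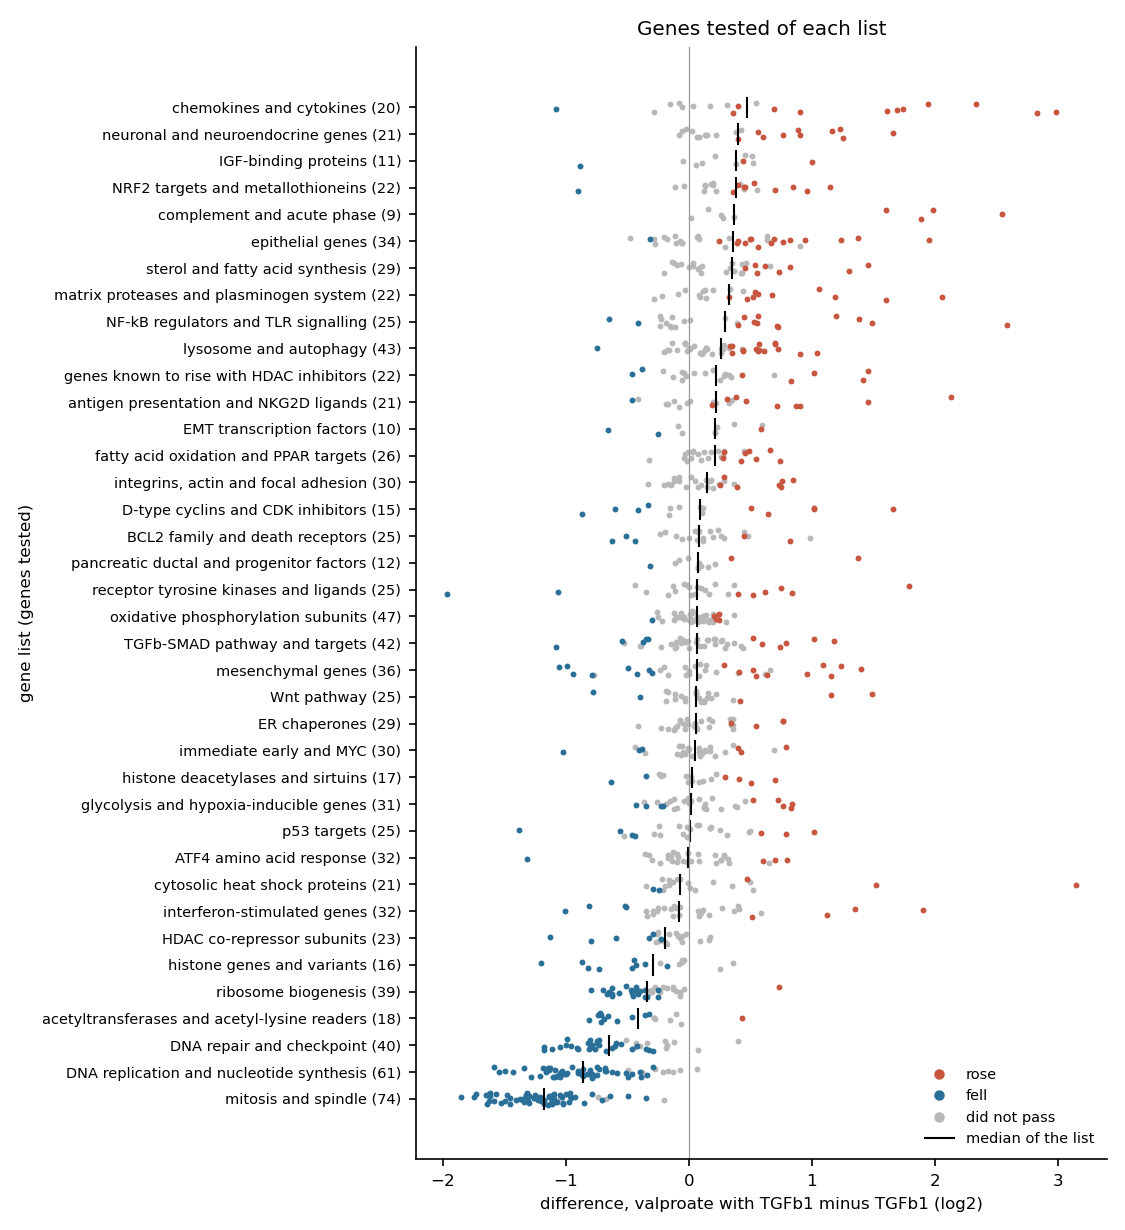
Each row is a gene list and each point 1 tested member, placed on the x axis by its log2 difference of valproate with TGFb1 minus TGFb1 alone, with a bar at the median. The list of mitosis and spindle lies wholly below 0 with a median of -1.18, and chemokines and cytokines have a median of 0.47 with members up to 2.98.

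Valproate is itself a fatty acid and can be oxidised in mitochondria. In the list of fatty acid oxidation and PPAR targets 8 of 26 rose and 0 fell, and the other 18 did not pass. ACSL1, which activates long-chain fatty acids, rose by 0.55 ± 0.08 (adjusted p = 0.000152), the carnitine transporter SLC22A5 rose by 0.49 ± 0.091 (adjusted p = 0.00102), and ECI2, an isomerase of unsaturated chains, rose by 0.66 ± 0.17 (adjusted p = 0.00767), with probe sets from -0.055 to 0.66. Of sterol and fatty acid synthesis genes 8 of 29 rose and 0 fell. The sterol reductase TM7SF2 rose by 1.46 ± 0.22 (adjusted p = 0.000248), from 8.96, 9.44, 8.83 and 8.50 to 10.65, 9.98 and 10.54. INSIG2, which retains SCAP in the endoplasmic reticulum, rose by 1.30 ± 0.18 (adjusted p = 9.01e-05), and the demethylation enzyme MSMO1 rose by 0.82 ± 0.16 (adjusted p = 0.00166). The desaturase SCD differed by -0.20 ± 0.11 (adjusted p = 0.174). The sterol list had 4 rises without valproate array 1, 12 without TGFb1 array 2 and 15 without TGFb1 arrays 2 and 4.

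Glycolytic and hypoxia-inducible genes were split, as 5 of 31 rose and 4 fell, with 1 fall without valproate array 1 or 3 and 2 without valproate array 2. Hexokinase HK1 rose by 0.72 ± 0.11 (adjusted p = 0.000295), the enolase isoform ENO2, found mainly in neurons, rose by 0.77 ± 0.09 (adjusted p = 2.69e-05), and NDRG1, a stress-responsive gene, rose by 0.83 ± 0.12 (adjusted p = 0.000127). In the list of the ATF4 amino acid response 3 of 32 rose and 1 fell. ATF5, a transcription factor of the ATF4 group, fell by 1.31 ± 0.091 (adjusted p = 4.61e-07), from 10.06, 10.25, 9.98 and 10.02 to 8.75, 8.65 and 8.89. This list depended on 1 array: 13 members fell without TGFb1 array 4, and with array 2 also left out 14 fell and none rose. The mean of the list in TGFb1 array 4 lay 0.66 below the TGFb1 mean. MTHFD2, of mitochondrial folate metabolism, differed by -0.17 ± 0.14 (adjusted p = 0.41), and by -0.32 (adjusted p = 0.0231) without that array.

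Subunits of oxidative phosphorylation mostly did not pass: 4 of 47 rose and 1 fell, and the members ranged from -0.30 to 0.37. SDHD, of complex II, fell by 0.30 ± 0.073 (adjusted p = 0.00641) and COX7C, of complex IV, rose by 0.25 ± 0.062 (adjusted p = 0.00763). Both missed the threshold with only both groups in the fit (adjusted p = 0.0513 and 0.0614). With 1 array left out in turn the list gave 1 to 8 rises and 1 to 3 falls, the most rises without TGFb1 array 4. Of NRF2 targets and metallothioneins 9 of 22 rose and 1 fell. Sulfiredoxin SRXN1 rose by 0.96 ± 0.067 (adjusted p = 4.9e-07) and metallothionein MT1F rose by 1.15 ± 0.18 (adjusted p = 0.000295), in a family of close relatives. KEAP1, the adaptor that sends NRF2 for degradation, fell by 0.90 ± 0.086 (adjusted p = 6.3e-06), with 9.32, 9.19 and 9.48 in the valproate arrays and 10.19, 10.35, 10.11 and 10.27 in the TGFb1 arrays. Heme oxygenase HMOX1 differed by 0.20 ± 0.27 (adjusted p = 0.635), and by -0.13 (adjusted p = 0.444) without TGFb1 array 4.

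Of lysosomal and autophagy genes 15 of 43 rose and 1 fell, and the other 27 did not pass. The share of rises was 34.9%, against 15.1% of all genes, and without TGFb1 array 4 the list had 3 falls. Acid ceramidase ASAH1 read 9.91, 9.99 and 9.80 with valproate and 8.75, 8.19, 9.05 and 9.45 with TGFb1, and rose by 1.04 ± 0.23 (adjusted p = 0.00325). Iduronate sulfatase IDS rose by 0.90 ± 0.16 (adjusted p = 0.000619) and the proton pump subunit ATP6V1A rose by 0.72 ± 0.15 (adjusted p = 0.00268). Cathepsin S, CTSS, fell by 0.74 ± 0.19 (adjusted p = 0.00952), but with probe sets whose names end in _x_at left out it did not pass (-0.56, adjusted p = 0.1). Prosaposin PSAP differed by -0.014 ± 0.069 (adjusted p = 0.913). Of the endoplasmic reticulum chaperones 4 of 29 rose and 0 fell, a share of 13.8% against 15.1% of all genes. EDEM1, of glycoprotein degradation, rose by 0.76 ± 0.12 (adjusted p = 0.00028). The chaperone HSPA5 differed by -0.17 ± 0.10 (adjusted p = 0.243), and without TGFb1 array 4 it passed (-0.24, adjusted p = 0.0396) and the group had 8 rises and 2 falls. Among cytosolic heat shock proteins 3 of 21 rose and 2 fell, and 7 and 4 without that array. Besides DNAJC12, the small chaperone HSPB8 rose by 1.52 ± 0.18 (adjusted p = 2.69e-05), while HSPA8, the constitutive HSP70, differed by 0.01 ± 0.17 (adjusted p = 0.975), and by 0.21 (adjusted p = 0.0779) without TGFb1 array 4.

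Of genes of neurons and neuroendocrine cells 10 of 21 rose and 0 fell. SYT1, the calcium sensor of synaptic vesicles, read 9.99, 10.31 and 10.01 with valproate and 8.60, 8.02, 8.64 and 8.51 with TGFb1. It rose by 1.66 ± 0.15 (adjusted p = 3.5e-06). The granule protein CHGB rose by 1.25 ± 0.15 (adjusted p = 3.11e-05) and the neurotrophin receptor NGFR rose by 1.16 ± 0.23 (adjusted p = 0.00187). STX1A, a syntaxin of vesicle fusion, differed by 0.22 ± 0.18 (adjusted p = 0.39), and by 0.035 without TGFb1 array 4. The fewest rises with 1 array left out were 6, without valproate array 1. With no brightness limit 49 members could be tested, of which 19 rose and 1 fell.

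Ligands and receptors of growth signalling changed singly. Among receptor tyrosine kinases and their ligands 6 of 25 rose and 2 fell, and 7 fell without TGFb1 array 4. The rises were 3 in each fit without a valproate array or TGFb1 array 3. EREG, a ligand of the EGF receptor, read 7.98, 8.28 and 8.07 with valproate and 6.83, 6.10, 6.55 and 5.81 with TGFb1. It rose by 1.79 ± 0.22 (adjusted p = 3.79e-05), with probe sets from -0.013 to 1.79. The TGFb1 values of EREG lay below the brightness limit of 6.89, so the size of its rise is uncertain. TGFA, another such ligand, rose by 0.84 ± 0.18 (adjusted p = 0.00288), with probe sets from -0.083 to 0.84. PDGFA, a platelet-derived growth factor chain, read 9.99, 9.95 and 10.01 against 11.03, 11.02, 11.06 and 11.08 and fell by 1.06 ± 0.09 (adjusted p = 2.29e-06). In the Wnt list 3 of 25 rose and 2 fell: the secreted Wnt antagonist SFRP1 rose by 1.49 ± 0.26 (adjusted p = 0.000575), and DKK3 rose by 1.15 ± 0.15 (adjusted p = 5.09e-05), with probe sets from -0.13 to 1.15. The Wnt list had 5 rises and 3 falls without TGFb1 array 4, and 1 fall in each fit without TGFb1 array 1 or 3 or a valproate array. IGFBP2, which binds insulin-like growth factors, rose by 1.01 ± 0.16 (adjusted p = 0.000291).

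Of 30 immediate early genes and MYC partners, 3 rose and 3 fell, and 5 fell without TGFb1 array 4. KLF2, a zinc finger factor, fell by 1.02 ± 0.13 (adjusted p = 6.12e-05), from 9.58, 9.76, 9.39 and 9.58 to 8.45, 8.54 and 8.69. MXI1, an antagonist of MYC, rose by 0.79 ± 0.14 (adjusted p = 0.000713). MYC itself differed by -0.44 ± 0.20 (adjusted p = 0.11), and by -0.60 (adjusted p = 0.0119) without TGFb1 array 4. DUSP1, a phosphatase of MAP kinases, differed by -0.079 ± 0.21 (adjusted p = 0.823), and by -0.31 (adjusted p = 0.0721) without that array. Ductal factors of the pancreas mostly did not pass: 2 of 12 rose and 1 fell, and SOX9, a ductal transcription factor, differed by 0.22 ± 0.12 (adjusted p = 0.184), and by 0.093 without TGFb1 array 4.

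Several lists above held no fall, and at an unadjusted p under 0.05 in limma most still held none. The exceptions were fatty acid oxidation, with 1 lower gene, and integrins, actin and focal adhesion, also with 1. Lists with 0 lower genes at that level were matrix proteases, complement, sterol synthesis, endoplasmic reticulum chaperones and neuronal genes. Among the co-repressor subunits, which held no rise, 0 were higher at that level and 8 were lower.

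Markers of other cell types that a pancreatic culture could hold were mostly below the brightness limit. Of the leukocyte markers 1 of 4 rose and 0 fell, of the endothelial 1 of 2 rose and 0 fell, of the hepatocyte 1 of 3 rose and 0 fell, of the fibroblast and stellate 0 of 4 rose and 1 fell and of the acinar and islet 0 of 1 rose and 0 fell. The members that passed were CD68, ESAM, RBP4 and COL3A1, and CD68, ESAM and RBP4 lost the call without valproate array 2. Among markers below the brightness limit of 6.89 in both groups, PTPRC of leukocytes averaged 3.73 with valproate and 3.83 with TGFb1, and PECAM1 of endothelium 6.03 and 6.18. ALB of hepatocytes averaged 4.73 and 4.95, DCN of fibroblasts 4.24 and 4.17, and CPA1 of acinar cells 6.09 and 5.95. Other markers were above that limit in both groups, such as COL1A1 of the fibroblast and stellate list. Averaged over each whole list, the levels ran from 6.16 to 6.18 with valproate and 6.01 to 6.26 with TGFb1 for the 11 leukocyte markers, and from 6.12 to 6.26 and 5.91 to 6.16 for the 10 endothelial ones. They ran from 5.75 to 5.80 and 5.38 to 5.83 for 10 hepatocyte markers, from 6.55 to 6.65 and 6.15 to 6.46 for 10 fibroblast and stellate markers, and from 5.37 to 5.42 and 5.25 to 5.51 for 7 acinar and islet markers. The valproate arrays lay wholly above the TGFb1 arrays only in the fibroblast and stellate list, and the part of other cells in the results was not tested. In such bulk RNA, fewer cells of a kind and less RNA per cell cannot be told apart.

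Some of the largest rises were in genes left out as dim over all 14 arrays. In a fit of all 18129 genes, 534 of the 7252 dim genes rose (7.36%) and 178 fell (2.45%). Of these 175 rose and 7 fell at least 2-fold, and in 114 of the 175 the valproate mean was above the limit. The genes named next were chosen after their values were seen. BEX5, of the brain-expressed X-linked family, read 8.75, 9.14 and 8.86 with valproate and 5.24, 5.04, 5.26 and 5.01 with TGFb1, a rise of 3.78 ± 0.15 (adjusted p = 2.47e-09). CXCL6, a further neutrophil chemokine, read 8.44, 8.21 and 8.21 against 4.61, 4.84, 4.56 and 5.64, a rise of 3.38 ± 0.32. FABP4, a fatty acid carrier and PPAR target, read 8.15, 8.38 and 8.01 against 4.88, 4.94, 4.80 and 5.09, a rise of 3.25 ± 0.11. The arrays of both groups were far apart in all 3 genes. Their TGFb1 levels lay below the brightness limit of 6.89, where values are compressed, so these differences may not give the size of the change in RNA.

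PTGS2, the inducible cyclooxygenase, rose by 2.32 ± 0.22, from a mean of 5.52 to 7.84. Interleukin 1 alpha, IL1A, rose by 2.25 ± 0.14 and the chemokine CXCL3 by 1.98 ± 0.27. The stromelysin MMP10 rose by 1.88 ± 0.26. Of genes known from neurons, secretogranin SCG2 rose by 2.47 ± 0.37, the ubiquitin hydrolase UCHL1 by 2.15 ± 0.099 and the synaptotagmin SYT11 by 1.35 ± 0.17. LUM, a matrix proteoglycan that also stands on the fibroblast list, rose by 2.63 ± 0.12, to a mean of 6.14. The EMT factor SNAI2 rose by 0.91 ± 0.12, from 7.03 to 7.94, and ESRP1, a splicing factor of epithelial cells, rose by 1.02 ± 0.23. The 7 larger falls include the receptor accessory protein MRAP2, which fell by 1.40 ± 0.41, and HASPIN, a mitotic kinase of histone H3, which dropped by 1.09 ± 0.14.

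Against untreated cells, 1841 genes were higher with valproate and TGFb1 (16.9%) and 2150 were lower (19.8%). Both treatments differ in this contrast, and it shares the valproate arrays with the one above. The largest rises were those of the protease ADAM19, the collagen chain COL1A1 and the focal adhesion scaffold NEDD9. Of these ADAM19 rose by 4.35 ± 0.23 (adjusted p = 1.33e-08), COL1A1 rose by 4.30 ± 0.27 (adjusted p = 7.25e-08) and NEDD9 rose by 3.97 ± 0.15 (adjusted p = 6.8e-10). ADAM19 averaged 6.35 ± 0.35 in untreated cells, 10.25 ± 0.50 with TGFb1 and 10.70 ± 0.11 with both agents. SMAD7 stood at 9.42 ± 0.26, 10.74 ± 0.087 and 10.71 ± 0.083 in the same order, and it rose by 1.29 ± 0.12 (adjusted p = 2.21e-06). Of the TGFb-SMAD list 24 of 42 rose and 5 fell against untreated cells. Mitotic genes fell here too (68 of 74), with TIMELESS, for example, at 9.23 ± 0.065 in untreated cells and 7.76 ± 0.034 with both agents.

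The largest falls against untreated cells were those of IFIT2 (-3.11), RGCC, a regulator of the cell cycle (-2.46), and GRHL3, an epithelial transcription factor (-2.43). Of 32 interferon-stimulated genes 0 rose and 21 fell. At an unadjusted p under 0.05 in limma 1 was higher and 24 were lower. IFIT2 averaged 11.45 ± 0.18 in untreated cells, 9.15 ± 0.25 with TGFb1 and 8.34 ± 0.24 with both agents. E-cadherin CDH1 fell by 1.77 ± 0.28 (adjusted p = 0.000247) against untreated cells, and FN1, at 6.77 ± 0.36 in untreated cells, rose by 1.996 ± 0.32 (adjusted p = 0.000286).

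Set against acriflavine with TGFb1, valproate with TGFb1 was higher in 2530 genes (23.3%) and lower in 3074 (28.3%). Acriflavine is a dye that binds DNA and inhibits the dimerisation of hypoxia-inducible factors. Both agents were given for the same time, but at different doses and with unrelated structures, so the levels are a description of these cultures. CCND2 stood at 11.40 ± 0.32 with valproate and 6.34 ± 0.42 with acriflavine, DNAJC12 at 10.56 ± 0.086 and 5.68 ± 0.095, and BCAT1, of branched-chain amino acid breakdown, at 11.06 ± 0.39 and 6.18 ± 0.083. These 3 had the largest positive differences. The largest negative ones were those of tissue factor F3 (-4.07), the histone gene H2BC11 (-3.99) and IFIT2 (-3.68).

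Mitotic genes were lower with valproate than with acriflavine in 69 of 74, with KIF20A at 6.89 ± 0.55 and 8.87 ± 0.088. Genes of the ATF4 response were higher with valproate in 24 of 32. CXCL5 was 7.73 ± 0.15 with valproate and 9.06 ± 0.15 with acriflavine, and SERPINA3 was 12.09 ± 0.23 and 12.22 ± 0.091, a difference of -0.14 ± 0.21 (adjusted p = 0.616). CXCL8 was 12.65 ± 0.24 and 11.94 ± 0.035. TGFb-SMAD genes were higher with valproate in 21 of 42 and lower in 5. COL1A1 averaged 12.78 ± 0.068 with valproate and 8.28 ± 0.067 with acriflavine, and it was 12.16 ± 0.61 with TGFb1 alone.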

How the data were processed

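RNA of 14 PANC-1 cultures was measured on Affymetrix arrays, 1 array a culture. The deposited values are log2 intensities per probe set, made by the authors with RMA in the affy package, version 1.44.0, per the submitters' processing notes. RMA corrects background, quantile-normalises and summarises probes, so it evens out overall shifts between arrays, and low values are compressed. Which arrays were normalised together is not given in the sources used here. Array medians lay between 7.16 and 7.21, and no 2 arrays held the same values.

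Probe sets were named through GEO's platform annotation: 44898 of 49193 named 1 gene, 1825 several and 2470 none, and only the first kind was used. Each of 18129 genes was read from its brightest probe set over all arrays, and the dimmest 40% of genes (mean under 6.89) were left out. In R 4.3.3, limma 3.58.1 (lmFit, then eBayes) estimated a mean for each of the 4 treatments from all 14 arrays, and the 3 comparisons were adjusted by Benjamini-Hochberg over 10877 genes. The median SE of a difference was 0.12. The number of arrays limits the precision, and the fit assumes the same spread in each treatment. The steps were tested on simulated data.

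The genes named are the 15 largest rises and the 15 largest falls among those that passed with no overlap, up to 4 members of each of 43 lists that passed and up to 2 that did not, a panel of genes of interest, and the 3 largest rises and falls of each other comparison, with examples chosen among these. The comparison, the lists and the panel were chosen with earlier results of these data known. Of 175 named genes that passed, 16 had another probe set of the opposite sign. Alternatives covered the brightness limit, probe set choice, scaling, the model, the threshold, a replicate block and each array left out, and leaving out TGFb1 arrays 2 and 4 together was added after seeing the data. Promoters and motifs were read from RefSeq on GRCh38.p14.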

Additional observations from a re-analysis of the deposited data

Results flagged for a closer look

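Within the groups of 4, the highest or lowest array was compared with the others by Dixon's test, for the 205 genes described above and for the mean of each gene list. Chance marks about 1 in 20 such groups. Of 410 groups of gene values 50 were marked, 21 of them by TGFb1 array 4 and 21 by untreated array 4. Values are log2 intensities, with the range of the other 3 arrays of the group in parentheses, and the cause was not tested.

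For the lists, the mean of the tested members is given as its difference from the TGFb1 mean. TGFb1 array 4 stood low for the list of ATF4 amino acid response at -0.66 (0.12 to 0.28), the list of BCL2 family and death receptors at -0.16 (0.0388 to 0.0696), the list of NF-kB regulators and TLR signalling at -0.18 (0.0413 to 0.0821), the list of chemokines and cytokines at -0.15 (0.0428 to 0.0574) and the list of epithelial genes at -0.25 (0.0679 to 0.11). The same array was low for the list of genes known to rise with HDAC inhibitors at -0.23 (0.0554 to 0.0995), the list of histone genes and variants at -0.17 (0.0502 to 0.0631) and the list of lysosome and autophagy at -0.0526 (0.0134 to 0.0237). TGFb1 array 4 stood high for the list of acetyltransferases and acetyl-lysine readers at 0.18 (-0.0738 to -0.0345) and the list of mitosis and spindle at 0.54 (-0.19 to -0.17). TGFb1 array 1 stood high for the list of ribosome biogenesis at 0.0204 (-0.0101 to -0.00504). Untreated array 4 stood low for the list of integrins, actin and focal adhesion at -0.51 (-0.31 to -0.28). Untreated array 4 stood high for the list of antigen presentation and NKG2D ligands at 0.62 (0.20 to 0.25), the list of chemokines and cytokines at 0.79 (0.34 to 0.38) and the list of matrix proteases and plasminogen system at -0.23 (-0.43 to -0.42). Untreated array 1 stood low for the list of mitosis and spindle at -0.32 (-0.18 to -0.15).

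TGFb1 array 4 stood low for CD74 at 7.26 (7.44 to 7.45), CFLAR at 9.55 (10.14 to 10.20), COL1A1 at 11.24 (12.45 to 12.48), CPA4 at 7.02 (7.80 to 7.89) and GADD45B at 12.18 (13.09 to 13.18). The same array was low for H1-10 at 10.72 (12.06 to 12.14), HMOX1 at 12.34 (13.62 to 13.75), LIF at 10.71 (11.29 to 11.41), MARCHF9 at 5.61 (6.30 to 6.40) and MYC at 12.09 (12.67 to 12.78). It was low as well for SOX9 at 11.99 (12.45 to 12.53), SPINT1 at 8.27 (8.69 to 8.75) and STX1A at 9.12 (9.80 to 9.90). TGFb1 array 4 stood high for ATP6V1A at 11.53 (10.88 to 10.90), CENPA at 12.02 (10.88 to 11.01), DKK3 at 11.80 (11.43 to 11.48), HSPA8 at 14.55 (13.68 to 13.82) and LTBP1 at 9.17 (8.86 to 8.90). The same array was high for MAN1A1 at 8.57 (6.83 to 7.06), PIF1 at 9.32 (7.62 to 7.87) and SCD at 14.18 (13.88 to 13.92). TGFb1 array 2 stood low for SDHD at 11.96 (12.14 to 12.17). TGFb1 array 2 stood high for PRSS3 at 6.80 (6.29 to 6.36). TGFb1 array 3 stood low for GRHL3 at 7.66 (7.98 to 8.003) and PECAM1 at 6.07 (6.21 to 6.23). Untreated array 4 stood low for CFL1 at 13.45 (14.05 to 14.15), COL1A1 at 7.85 (8.61 to 8.73), H1-10 at 11.02 (11.89 to 12.03), MBD3 at 9.49 (10.04 to 10.12) and MT1F at 8.01 (8.47 to 8.56). The same array was low for MYC at 11.62 (12.39 to 12.49), NPM1 at 14.09 (14.23 to 14.26) and UTP20 at 8.30 (8.51 to 8.53). Untreated array 4 stood high for C3 at 9.19 (7.46 to 7.72), CCL20 at 9.72 (8.90 to 9.04), CTSS at 8.59 (7.75 to 7.79), DKK3 at 12.03 (11.33 to 11.43) and H2AX at 12.11 (11.82 to 11.85). The same array was high for HLA-F at 9.91 (8.91 to 8.96), INSIG2 at 9.21 (8.49 to 8.57), ITGA2 at 10.18 (9.81 to 9.87), MAN1A1 at 9.01 (7.39 to 7.53) and MMP7 at 8.52 (7.71 to 7.76). It was high as well for MUC1 at 9.55 (9.40 to 9.42), PLAU at 13.69 (13.20 to 13.24) and UBE2L6 at 10.86 (9.996 to 10.09). Untreated array 1 stood high for FABP4 at 4.90 (4.65 to 4.69). Untreated array 2 stood low for CDC25B at 11.69 (11.88 to 11.91), HSPA8 at 13.86 (14.15 to 14.20) and LCN2 at 8.95 (9.56 to 9.63).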

How the results depend on the processing

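In the comparison of valproate with TGFb1 alone, leaving out 1 array in turn gave 1228 to 2215 rises and 1299 to 2182 falls, and 258 to 314 rises and 145 to 202 falls of at least 2-fold. Against untreated cells the ranges were 1438 to 1910 and 1626 to 2080, and against acriflavine 2099 to 2194 and 2604 to 2798. Other settings moved a count by over 1.5 times. The brightness limit did so for the rises: those of at least 2-fold numbered 443 with no limit, 411 with the dimmest 20% left out and 113 with a stricter limit that kept the 7252 brightest genes. Under the last, with fewer genes tested, 1028 genes rose against TGFb1 and 1189 against untreated cells. Testing each probe set separately counts a gene more than once, and gave 3357 rises and 4213 falls, with 568 and 381 of at least 2-fold, 3960 and 5306 against untreated cells, and 5902 and 7004 against acriflavine. Array weights gave 3456 rises and 3538 falls, and 3031 and 3606 against untreated cells, but their estimation did not converge well, with weights from 0.070 for TGFb1 array 4 to 30.3 for TGFb1 array 1. With only both groups in the fit, 1139 genes fell, while the rises, at 1124, moved less. In that fit 31 named genes lost their call and 1, CDH1, gained it. Among those that lost it were FN1 (adjusted p = 0.0513), SIRT2 (0.0624), SDHD (0.0513) and COX7C (0.0614). An adjusted p of 0.01 left 1066 rises and 1133 falls, and 1407 falls against untreated cells. With replicates 4 of both TGFb1 and untreated cells left out, 2627 genes rose.

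Deviations of valproate and TGFb1 arrays 1 to 3 with the same number correlated at -0.10, -0.64 and -0.58. Deviations of 3 arrays from their own mean are tied to each other, so these values cannot decide whether replicate numbers pair the samples. The untreated and acriflavine arrays were not examined in this way. COL1A1, H1-10 and MYC stood low in array 4 of both TGFb1 and untreated cells, and MAN1A1 and DKK3 stood high in both. The chemokine list stood low in the first and high in the second. A fit with the replicate block gave 2319 rises and 2256 falls against TGFb1. In it 17 named genes passed that otherwise did not, among them CDH1 (0.84, adjusted p = 0.00496), COL1A1 (0.36, adjusted p = 0.00568) and H1-10 (-0.37, adjusted p = 0.00677), and no named gene lost its call. Of 267 named genes 42 had differences on both sides of 0 over the settings, of which 1, NDUFB3, passed with all arrays. For 5 named genes the sign turned and the difference passed in at least 1 of the fits compared: NDUFB3 was at -0.093 with the mean of probe sets, EPHA2 (0.020 with all arrays, 0.11 without TGFb1 array 2) at -0.21 without TGFb1 array 4 (alone or with untreated array 4) and -0.22 with array weights, F3 at -0.33, IGF2BP2 at -0.14 and TUBB3 at 0.24 with array weights. The share of rises among the genes called against TGFb1 was 48.3% and ran from 42.3% to 53.02% over all settings. The cause of these shifts was not tested.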
